A study of Mus musculus with 6 samples.

Results

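The genes described here are 10 markers of reactive astrocytes, read from the RNA of mouse spinal cord in which Sox2 was deleted by an astrocyte Cre line. They were chosen by symbol and are Lcn2, Cd44, S1pr3, Steap4 and Aspg from the pan-reactive set, Fbln5 and Amigo2 from the A1 set, and Emp1, S100a10 and Cd109 from the A2 set, so Gfap and Vim were not among them. All 10 had a row among the 35275 genes of the count table, and all 10 were among the 16137 genes that passed the filter on low counts. The filter asked for a minimum level in as many libraries as 1 group holds, and no gene of the 10 was lost to it.

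Bulk RNA-seq was done on spinal cord of 3 Sox2 cKO and 3 Ctrl mice of the C57BL/6 strain, 1 library each. The sample labels give mGfap-Cre:Sox2fl/fl for the Sox2 cKO mice and mGfap-Cre:Sox2+/+ for the Ctrl mice, the design text allows mGfap-Cre or Sox2fl/fl controls, and the methods name Sox2fl/fl littermates, so it is not settled whether the Ctrl mice carried Cre. The age is 90 days in one label and 80 days in the protocol and the methods. The RNA integrity number, a measure of RNA quality, is above 6.8 by the labels, and the methods give a higher minimum. Cre was driven by the mouse Gfap promoter, which is active in most astrocytes, and the RNA was poly(A)-selected from whole tissue, so astrocyte RNA was mixed with that of every other cell. The columns of the tables carry codes rather than sample names, and the last digit of each was read as a mouse number. Mice 2, 4 and 6 were taken as Ctrl and mice 1, 3 and 5 as Sox2 cKO, a mapping that the labels alone do not give. Total counts ran from 21983098 to 25015776 in Ctrl and from 21507911 to 28392184 in Sox2 cKO. In a chi-square comparison of the counts over genes, Ctrl mouse 2 was nearer to Sox2 cKO mice 5 (10.8 per degree of freedom) and 3 (14.7) than to Ctrl mice 4 (24.95) and 6 (29.2), so this library stood apart from its group. Sox2 itself, in CPM (counts scaled to a common library total), was 19.9, 14.8 and 29.5 in the Ctrl libraries and 3.16, 2.69 and 2.98 in the Sox2 cKO libraries. The groups did not overlap, and Sox2 fell by 2.86 on the log2 scale (SE 0.24, edgeR adjusted p = 0.00096).

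Astrocytes respond to injury, infection and disease by changing shape and gene expression, a state known as reactive astrogliosis. Some induced genes are shared by many insults and are called pan-reactive, while others were first grouped by the insult that raised them, as A1 genes after inflammatory stimulation with lipopolysaccharide and A2 genes after loss of blood flow. The A1 and A2 names are labels of these lists and not of cell states that bulk RNA can show, and most of the genes are also used by cells other than astrocytes. In bulk tissue, fewer cells of a type and less RNA per cell cannot be told apart.

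Per gene length, as FPKM, which scales counts by gene length and library total, the 10 genes spanned a wide range in the Ctrl spinal cord. S100a10 stood highest at a level of 49.3 ± 4.67 FPKM (SD, n = 3), above 92.5% of tested genes. Cd44 followed at 4.25 ± 0.57 and Emp1 at 4.16 ± 0.90, and these neighbours overlapped between libraries. Amigo2 at 2.41 and Fbln5 at 1.46 FPKM did not overlap with each other or with Emp1. Below Fbln5 came S1pr3 at 1.17, Cd109 at 1.15, Aspg at 0.89 and Lcn2 at 0.83 FPKM. From Fbln5 down to Aspg, each gene overlapped with the next in the order. Steap4 was lowest at 0.18 FPKM, apart from Lcn2 and above only 2.76% of tested genes. In the Sox2 cKO libraries S100a10 was still first with a mean level of 71.1 FPKM, Lcn2 came next at 7.52 ± 6.22 (SD, n = 3), and Cd44, at 2.97, came below Emp1 at 3.19 and Amigo2 at 3.09.

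The 10 genes did not move one way. In the edgeR quasi-likelihood test, 2 were called higher in Sox2 cKO, Lcn2 and S100a10, and 3 were called lower, Cd44, Emp1 and Cd109, at an adjusted p below 0.05 over all tested genes. Over all 16137 tested genes 12.2% were called higher and 12.4% lower. The median log2 fold change of the 10 was 0.085, against 0.018 over all tested genes. Read without any model, 5 of the 10 had no overlap in CPM between Ctrl and Sox2 cKO, Fbln5 and S100a10 being higher in every Sox2 cKO library and Cd44, Emp1 and Cd109 lower. Over all tested genes 22.6% were higher without overlap and 22.1% lower. Without Ctrl mouse 2, edgeR called 3 of the 10 higher, Lcn2, S100a10 and Fbln5 (0.62, adjusted p = 0.023), and Cd44 and Cd109 lower, while Emp1 was at -0.50 (adjusted p = 0.0504). More genes were called in that fit over the whole table too, 3030 higher and 3089 lower of 16590. DESeq2 on all libraries called 3 higher, Fbln5 with the 2 above, and the same 3 lower, where it called 12.9% of its genes higher and 15.2% lower. With so few members, 1 gene more or less moves each share by 10%. An exact permutation test of 3 libraries against 3 cannot give a two-sided p below 0.1, and it gave that smallest value for the 5 genes whose groups did not overlap.

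**Figure D1:**
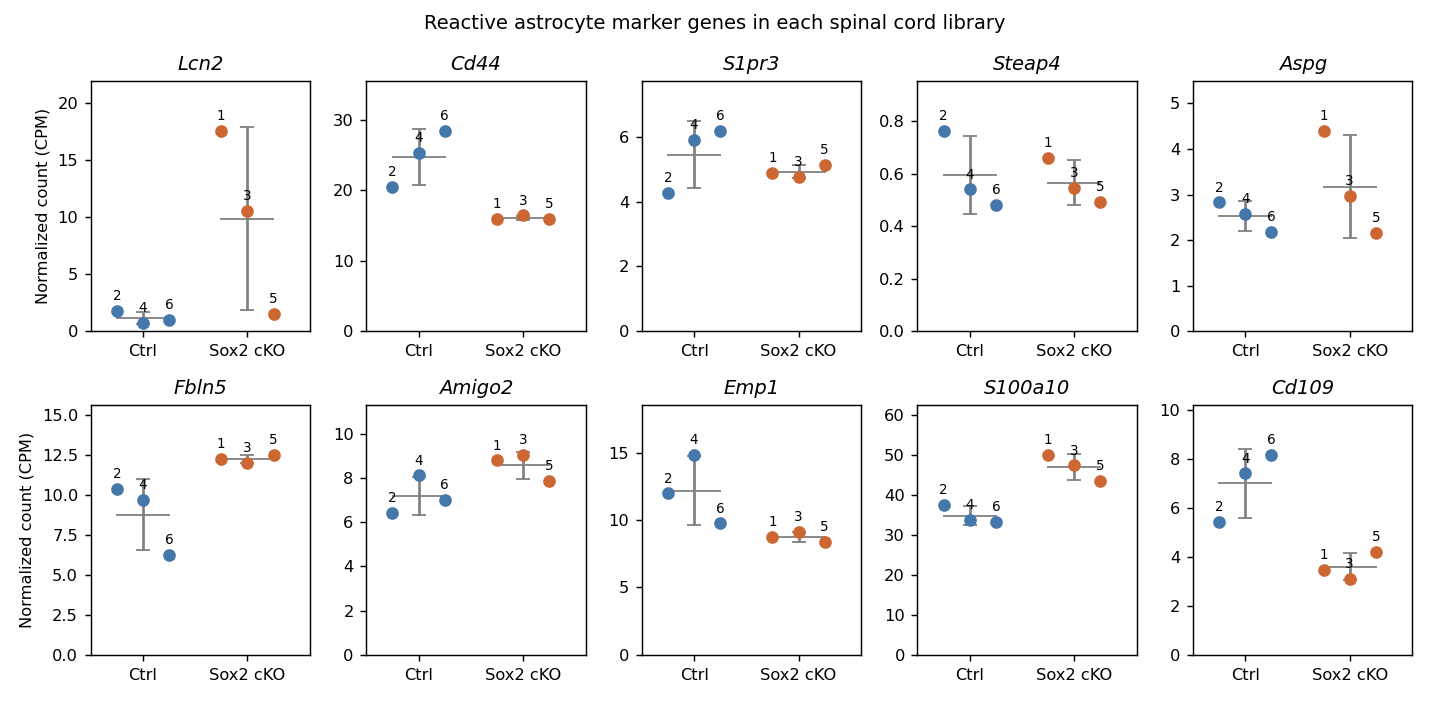
Each panel plots the normalized count (CPM, linear axis from 0) of 1 gene in the 3 Ctrl and 3 Sox2 cKO libraries, with the mouse number beside each point and bars for mean ± SD. Cd44, Emp1 and Cd109 were lower and Fbln5 and S100a10 higher in every Sox2 cKO library, while Lcn2 was high only in mice 1 and 3.

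**Figure D2:**
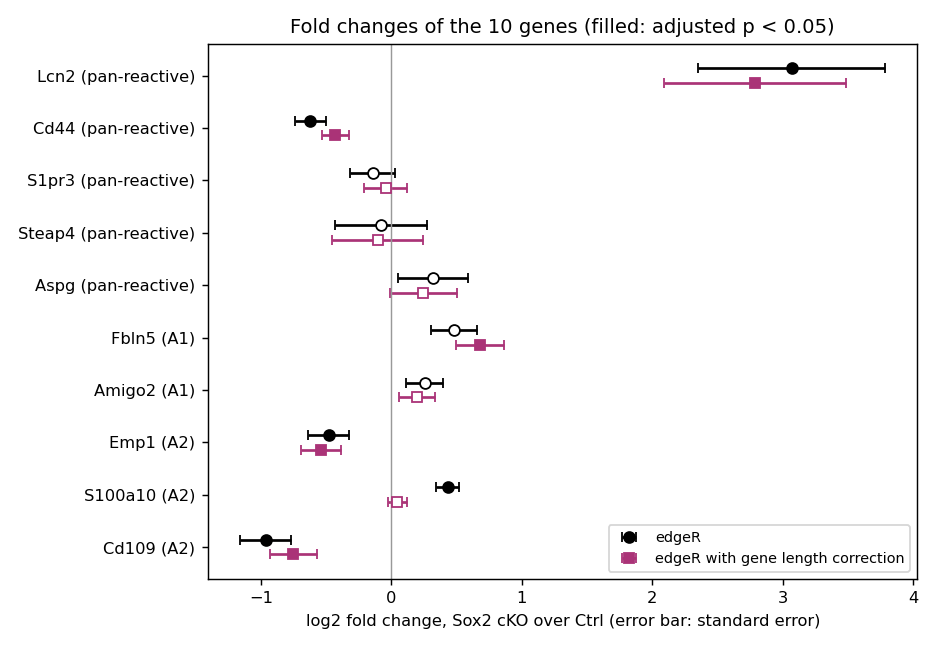
The plot gives the log2 fold change (Sox2 cKO over Ctrl) of each gene with its SE as the bar, as fitted by edgeR over all tested genes. Lcn2 had the largest change of the 10 at 3.07 and the widest error, and Cd109 the largest fall at -0.96.

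Gene length moved with the fold changes over the whole table, and these values belong beside those of the 10 genes. The tested genes were put in 5 groups of about equal size by length. In the shortest group, up to 1708 bases, 30.4% were called higher and 1.73% lower, and in the longest group, from 4872 bases, 1.74% were called higher and 36.0% lower. Spearman's rho of length against log2 fold change was -0.48 across 16137 genes, which are not independent of each other. Lcn2 (1374 bases) and S100a10 (685 bases), both called higher, were in the shortest group, and Cd44 (5614 bases) and Cd109 (5860 bases), both called lower, were in the longest. Fbln5, at 5829 bases, was also in the longest group and was higher in Sox2 cKO. S1pr3, Steap4, Aspg, Amigo2 and Emp1 were of middle length, from 2732 to 4484 bases. After a correction for length within each library, 6.08% of genes were called higher and 6.99% lower. Of the 10 genes, Lcn2 and Fbln5 were then called higher and Cd44, Emp1 and Cd109 lower, and the median log2 fold change was 0.00031. The part of gene length in these results beyond that correction was not tested.

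**Figure D3:**
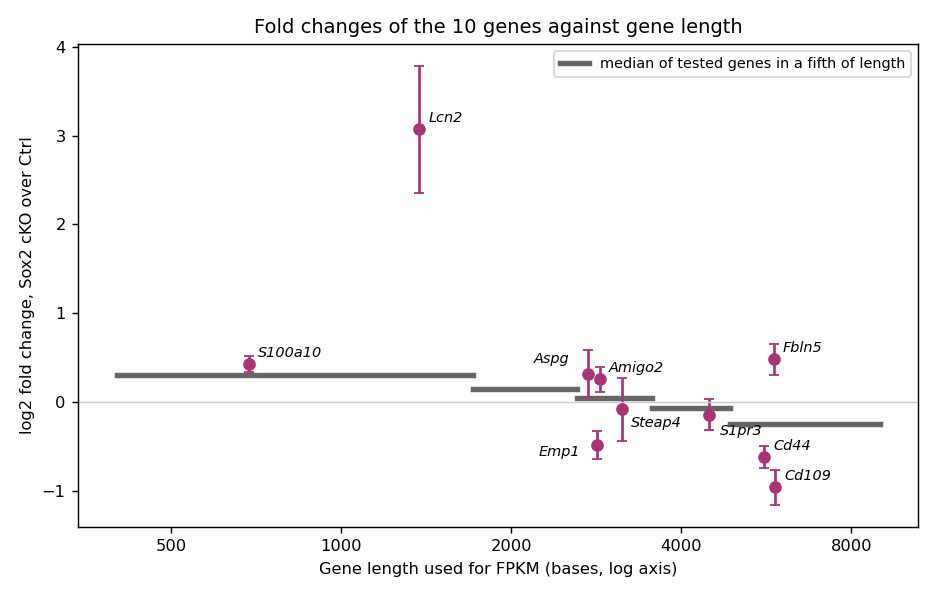
Points are the 10 genes, by the gene length used for FPKM (bases, log axis) and the log2 fold change (Sox2 cKO over Ctrl) with its SE, and the horizontal bars, cut at the edges of the plot, are the medians of all tested genes in each of 5 length groups. The medians went from 0.30 in the shortest group to -0.25 in the longest, and S100a10 lay near its group's median while Lcn2, Fbln5, Cd44, Cd109 and Emp1 lay away from theirs.

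Sequence from the 250 bases before a RefSeq start of transcription is shown for 4 of the genes. They are Lcn2 with the largest rise, Cd44 and Emp1 that fell, and Steap4, not called either way, which alone held the STAT motif. A RefSeq entry (GRCm38.p6) was found for 8 of the 10 genes, with 10 windows in all, and S100a10 and Cd109 had no entry. Both strands of each window were searched for the SOX core ACAAAG and the STAT motif TTCCNGGAA, where SOX2 is the deleted factor and STAT proteins carry cytokine signals in astrocytes. Neither motif contains the other. The SOX core was in 0 of the 10 windows and in 16.5% of all 32851 windows of this length. The STAT motif was in 1 of the 10 and in 0.913% of all. The study names CAAAG and its variants as the SOX2 motif, so a window without the longer ACAAAG can still hold that motif. Read on either strand, CAAAG occurs in the printed stretches of Cd44, Emp1 and Steap4, and it was not counted over all windows. Letters in a window are not a bound site, and their absence says nothing about sites elsewhere. Each sequence is the longest stretch of its window outside the untranslated ends of the gene's annotated transcripts. The stretches of Lcn2 and Emp1 lie inside longer GENCODE transcripts of the same genes, which start further upstream than the RefSeq ones, and a second RefSeq start of Emp1, whose window also held neither motif, is not shown. Capitals mark the STAT motif in Steap4, and the other 3 stretches hold no match to ACAAAG or the STAT motif. The windows are written on the strand of the gene, from 5′ to 3′.
Lcn2, chr2:32387798-32387989, minus strand: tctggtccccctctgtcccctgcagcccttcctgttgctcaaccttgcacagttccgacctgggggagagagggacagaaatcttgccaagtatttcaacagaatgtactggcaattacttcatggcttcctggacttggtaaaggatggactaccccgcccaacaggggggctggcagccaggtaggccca
Cd44, chr2:102901666-102901915, minus strand: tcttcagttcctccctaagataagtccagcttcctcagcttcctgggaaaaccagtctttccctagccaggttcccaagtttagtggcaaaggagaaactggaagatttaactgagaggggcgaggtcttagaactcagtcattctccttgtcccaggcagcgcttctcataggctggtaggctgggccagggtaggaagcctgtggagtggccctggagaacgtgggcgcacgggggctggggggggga
Emp1, chr6:135362708-135362903, plus strand: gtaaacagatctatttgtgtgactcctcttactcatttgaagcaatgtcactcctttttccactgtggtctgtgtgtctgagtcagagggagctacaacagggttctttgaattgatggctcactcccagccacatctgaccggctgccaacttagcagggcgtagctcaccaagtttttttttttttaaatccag
Steap4, chr5:7960222-7960456, plus strand: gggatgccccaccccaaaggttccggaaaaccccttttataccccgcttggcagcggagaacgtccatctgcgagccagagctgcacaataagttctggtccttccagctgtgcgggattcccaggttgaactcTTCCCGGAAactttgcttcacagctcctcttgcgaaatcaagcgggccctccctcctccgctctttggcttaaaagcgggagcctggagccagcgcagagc

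Lcn2 (ENSMUSG00000026822, mm10 chr2:32384633-32388252, minus strand) encodes lipocalin 2, a secreted protein that binds bacterial iron carriers and is made by reactive astrocytes and stored in neutrophil granules. Its level was 1.75, 0.748 and 1.01 CPM in Ctrl mice 2, 4 and 6, and 17.6, 10.5 and 1.51 CPM in Sox2 cKO mice 1, 3 and 5. Mice 1 and 3 stood above every Ctrl library and mouse 5 lay inside the Ctrl range, so the groups overlapped. The raw counts behind the lowest and highest of these were 18 in Ctrl mouse 4 and 400 in Sox2 cKO mouse 1, with 40 in mouse 5. The means were 1.17 ± 0.519 and 9.87 ± 8.05 CPM (SD, n = 3 each), a log2 fold change of 3.07 (SE 0.72, edgeR adjusted p = 0.018), or 8.39-fold. The exact permutation test on the means gave p = 0.2. Without Sox2 cKO mouse 1 the log2 fold change was 2.37 (edgeR adjusted p = 0.078), and without Ctrl mouse 4 it was 2.82 (0.082). Without Ctrl mouse 6 it was 2.99 (0.055), and without Sox2 cKO mouse 5 it was 3.58 (0.0030). DESeq2 also lost the call without Sox2 cKO mouse 1 (adjusted p = 0.090), Ctrl mouse 4 (0.074), Ctrl mouse 6 (0.063) or Sox2 cKO mouse 3 (0.056). It kept the call without Ctrl mouse 2 (adjusted p = 0.0086) or Sox2 cKO mouse 5 (1.2e-22).

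Several neutrophil marker genes moved with Lcn2 across the libraries. Mmp9, also on that list, moved little, at 9.87, 8.73 and 9.32 CPM in Ctrl and 10.5, 10.2 and 10.3 CPM in Sox2 cKO. The summed CPM of the 10 listed neutrophil markers was 29.2, 23.6 and 21.7 in Ctrl and 80.9, 83.2 and 33.4 in Sox2 cKO, highest in the same 2 mice as Lcn2. Of the 8 markers tested, 6 were called higher and 0 lower by edgeR, with 0 lower also at an unadjusted p below 0.05 and in DESeq2, and the median log2 fold change of the 8 was 1.70, while 12.2% of all tested genes were called higher. S100a8, S100a9, Ngp, Camp and Retnlg were in the shortest length group, where 30.4% were called higher, and with the length correction 4 of the 8 were called, with a median of 1.35. S100a9, a calcium-binding protein abundant in neutrophils, was 4.44, 4.32 and 2.61 CPM in Ctrl and 25.1, 25.2 and 8.50 CPM in Sox2 cKO. Its lowest Sox2 cKO library was above every Ctrl library, with a log2 fold change of 2.36 (edgeR adjusted p = 0.012). The ratio of Lcn2 to S100a9 was 0.394, 0.173 and 0.389 in Ctrl and 0.699, 0.418 and 0.178 in Sox2 cKO, so the groups overlapped in that ratio. Relative to the neutrophil sum, Lcn2 was 0.0598, 0.0317 and 0.0467 in Ctrl and 0.217, 0.127 and 0.0453 in Sox2 cKO, where mice 1 and 3 stood above Ctrl and mouse 5 within it. None of the 10 markers was at 0 in every library, and Elane and Mpo were too low to be tested. The part of neutrophil RNA in the Lcn2 result was not tested.

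**Figure D4:**
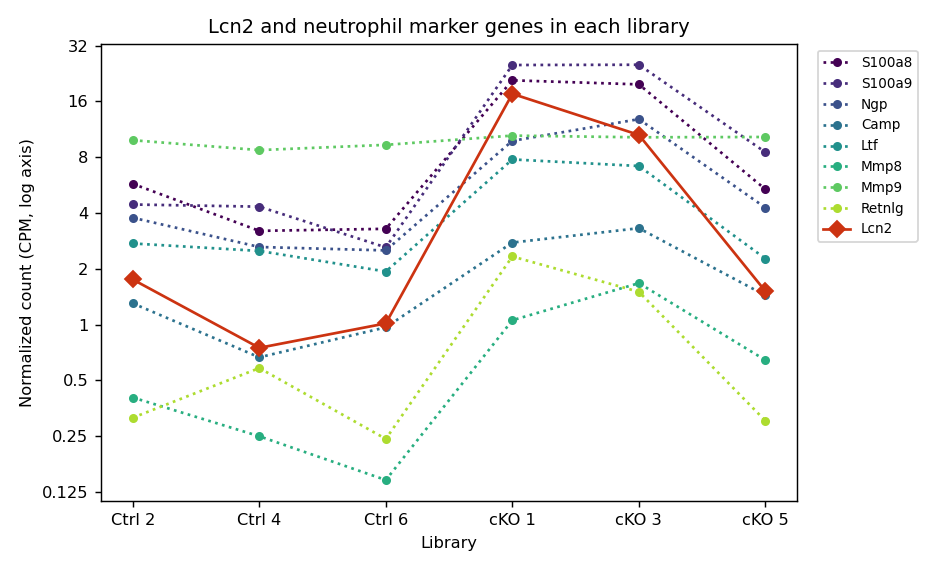
The plot gives the normalized count (CPM, log axis) of Lcn2 and of the tested neutrophil markers in each of the 6 libraries, with a line joining the values of 1 gene. Lcn2, S100a8 and S100a9 were highest in Sox2 cKO mice 1 and 3, and S100a8 went from between 3.20 and 5.74 CPM in Ctrl to 20.8, 19.8 and 5.36 CPM.

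Of all 16137 tested genes, the 3 whose profile over the 6 libraries was closest to that of Lcn2 included both S100 genes of neutrophils. The distance, the root mean square difference of log2 CPM centred on each gene's mean, was 0.60 for S100a8, 0.68 for S100a9 and 0.75 for Gdpd3. Gdpd3 encodes an enzyme of the glycerophosphodiester phosphodiesterase family. For Cd44 the closest were Gna12 (0.033), Tril (0.034) and Ccdc177 (0.039), and for S100a10 they were Trank1 (0.023), Cpne6 (0.025) and Nsmaf (0.026). The distance grows with a gene's own change and counting noise, so it cannot be compared between Lcn2 and the other genes. The 6 points of each profile share depth and group, and these distances are a description.

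Cd44 (ENSMUSG00000005087, chr2:102811141-102901665, minus strand) encodes a cell surface receptor for the matrix polymer hyaluronan. Its level was 20.5, 25.4 and 28.4 CPM in Ctrl and 15.9, 16.4 and 15.9 CPM in Sox2 cKO. All Sox2 cKO values lay under the lowest Ctrl value, and they lay close together. The means were 24.8 ± 3.98 and 16.1 ± 0.30 CPM (SD, n = 3 each), and Cd44 fell by 0.62 on the log2 scale (SE 0.12, edgeR adjusted p = 0.013), or by 0.43 with the length correction (edgeR adjusted p = 0.030). Within its length group, where the median log2 fold change was -0.25, Cd44 was lower by a further 0.37.

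Cd109 (ENSMUSG00000046186, chr9:78615546-78716253, plus strand) encodes a lipid-anchored surface protein that binds TGF-beta receptors, and is listed as an A2 gene. It was at 5.43, 7.40 and 8.16 CPM in Ctrl and 3.47, 3.10 and 4.19 CPM in Sox2 cKO. The groups did not overlap, with means of 7.00 ± 1.41 and 3.59 ± 0.554 CPM (SD, n = 3 each). Cd109 fell by 0.96 on the log2 scale (SE 0.20, edgeR adjusted p = 0.014), so that Ctrl stood 1.95-fold above Sox2 cKO, and by 0.75 with the length correction (edgeR adjusted p = 0.029). Its change was the largest fall of the 10 genes.

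Emp1 (ENSMUSG00000030208, chr6:135362545-135383173, plus strand), an A2 gene, encodes epithelial membrane protein 1, a small protein that crosses the membrane several times. Its level was 11.98, 14.8 and 9.75 CPM in Ctrl and 8.74, 9.11 and 8.39 CPM in Sox2 cKO. The groups did not overlap, but the lowest Ctrl library, mouse 6, was near the highest Sox2 cKO library. Emp1 fell by 0.48 on the log2 scale (SE 0.16, edgeR adjusted p = 0.048), and by 0.54 with the length correction (edgeR adjusted p = 0.045). The call was lost with upper quartile normalization (-0.44, edgeR adjusted p = 0.066) and without Ctrl mouse 4 (-0.31, edgeR adjusted p = 0.19). It was also lost in edgeR without Ctrl mouse 2 or any 1 Sox2 cKO mouse, with log2 fold changes from -0.51 to -0.45 and adjusted p from 0.0504 to 0.13. Emp1 was called under 8 of the 20 alternative settings.

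The calls of Cd44, Cd109 and S100a10 were also lost in edgeR without Sox2 cKO mouse 1 or without Ctrl mouse 4, with adjusted p between 0.065 and 0.071, while their log2 fold changes moved by less than 0.05. Those same fits called only 8 and 26 of all tested genes, against 3970 with all 6 libraries, and 4945 and 4758 genes were at an unadjusted p below 0.05 in them. DESeq2 without either library still called all 3 genes.

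S100a10 (ENSMUSG00000041959, chr3:93555080-93564643, plus strand) encodes the small partner of annexin A2 at the inner face of the plasma membrane, and is a commonly used A2 marker. Its level was 37.6, 33.8 and 33.3 CPM in Ctrl and 50.1, 47.4 and 43.6 CPM in Sox2 cKO. Every Sox2 cKO library was above every Ctrl library, with means of 34.9 ± 2.38 and 47.1 ± 3.26 CPM (SD, n = 3 each). S100a10 rose by 0.43 on the log2 scale (SE 0.09, edgeR adjusted p = 0.014). With the length correction the log2 fold change was 0.04 (edgeR adjusted p = 0.71), so the call ended. At 685 bases it was the shortest of the 10 genes, and its change was 0.13 above the median of 0.30 in its length group. The 3 A2 genes of the 10 thus held 1 gene called higher and 2 called lower.

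Fbln5 (ENSMUSG00000021186, chr12:101746565-101819055, minus strand), an A1 gene, encodes fibulin 5, a secreted protein of elastic fibres. Its level was 10.4, 9.69 and 6.23 CPM in Ctrl and 12.3, 12.01 and 12.5 CPM in Sox2 cKO. The groups did not overlap, and Ctrl mouse 6 stood below the other Ctrl libraries. The log2 fold change was 0.48 (SE 0.17, edgeR adjusted p = 0.067), which did not pass the test, while DESeq2 gave 0.47 (adjusted p = 0.049) and the length correction 0.68 (edgeR adjusted p = 0.042). Without Ctrl mouse 6 the value was 0.29 (edgeR adjusted p = 0.15). In that same library the summed CPM of 7 markers of meningeal fibroblasts, cells of the cord's wrapping, was 217, against 563 and 611 in the other Ctrl libraries and between 457 and 597 in Sox2 cKO. The summed CPM of 5 Schwann cell markers was 23.2 there, against 51.9 and 66.1 in the other Ctrl libraries and 46.0 to 67.9 in Sox2 cKO. No marker of either list was called by edgeR, where 0 Schwann and 1 fibroblast markers, the latter lower, were at an unadjusted p below 0.05, and DESeq2 called 0 of both. None of these markers was at 0 in every library, and their part in the Fbln5 result was not tested.

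Amigo2 (ENSMUSG00000048218, chr15:97244125-97247287, minus strand), the other A1 gene, encodes a surface protein of cell adhesion. Its level was 6.42, 8.11 and 7.00 CPM in Ctrl and 8.78, 9.04 and 7.86 CPM in Sox2 cKO. The groups overlapped through Ctrl mouse 4, and the log2 fold change was 0.25 (SE 0.14, edgeR adjusted p = 0.21). Amigo2 overlaps the gene Pced1b on the opposite strand, which held 48 to 83 counts in a library. The shared stretch runs only from base 97247107 to 97247287. The methods name a directional library kit, but it is not stated whether the counting used strand. Reads of that stretch may therefore belong to either gene.

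The last 3 pan-reactive genes did not pass the test. S1pr3 (ENSMUSG00000067586, chr13:51408639-51422797, plus strand), a receptor for the lipid sphingosine 1-phosphate, was at 4.26, 5.90 and 6.18 CPM in Ctrl and 4.87, 4.78 and 5.14 CPM in Sox2 cKO. The Sox2 cKO libraries lay inside the Ctrl range, and the log2 fold change was -0.14 (SE 0.17, edgeR adjusted p = 0.57). Aspg (ENSMUSG00000037686, chr12:112106679-112127559, plus strand), an enzyme that splits asparagine, was at 2.83, 2.58 and 2.17 CPM in Ctrl and 4.39, 2.97 and 2.15 CPM in Sox2 cKO. Mice 1 and 3 were above every Ctrl library and mouse 5 was just below them all, and the log2 fold change was 0.32 (SE 0.27, edgeR adjusted p = 0.40).

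Steap4 (ENSMUSG00000012428, chr5:7960457-7982213, plus strand), a reductase of iron and copper, was at 0.763, 0.540 and 0.483 CPM in Ctrl and 0.659, 0.546 and 0.491 CPM in Sox2 cKO. These rest on 10 to 17 counts in a library, and the groups overlapped fully. The log2 fold change was -0.08 (SE 0.35, edgeR adjusted p = 0.88), and with that SE a change of either sign could not be detected at this depth unless it was large. Within the 5 pan-reactive genes, then, Lcn2 was called higher, Cd44 lower, and S1pr3, Steap4 and Aspg neither.

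The other genes of the same published sets were read from a list of 26, of which 24 were tested and Tgm1 and Slc10a6 were too low. By edgeR 5 of the 24 were called higher and 1 lower, and DESeq2 called 6 higher and 1 lower, against the 12.2% and 12.4% of all tested genes in edgeR and the 12.9% and 15.2% in DESeq2. Sox2 cKO mouse 1 held the highest level of 18 of the 24, and of 27.2% of all tested genes. Without that mouse edgeR called 0 higher and 0 lower, with 6 at an unadjusted p below 0.05, and DESeq2 called 3 higher and 1 lower. Over all genes those fits called 3 higher and 5 lower of 16482 in edgeR, and 966 higher and 1376 lower in DESeq2. Without Ctrl mouse 4 edgeR called 0 higher and DESeq2 5, without Ctrl mouse 6 they called 1 and 5, without Sox2 cKO mouse 3 they called 2 and 5, and without Ctrl mouse 2 they called 8 and 7. Over all genes, in the same order, edgeR called 13, 602, 698 and 3030 higher, and DESeq2 886, 1009, 1075 and 2609. The edgeR fits tested 16373, 16552, 16345 and 16590 genes. By sign 20 of the 24 were higher in Sox2 cKO, against 8384 of all 16137, with a median log2 fold change of 0.40, or 0.38 with the length correction, under which 2 were called higher and 1 lower. The groups did not overlap for 10 that were higher and 1 that was lower, against 22.6% and 22.1% of all tested genes.

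Gfap, the intermediate filament whose promoter drove Cre, was the gene called lower. It was at 2373, 2643 and 3506 CPM in Ctrl and 1500, 1185 and 1251 CPM in Sox2 cKO, without overlap, and fell by 1.11 on the log2 scale (SE 0.15, edgeR adjusted p = 0.010). Vim, the other classic filament gene of reactive astrocytes, ranged from 60.1 to 69.4 CPM in the Ctrl mice and from 59.9 to 69.8 in the Sox2 cKO mice, with a log2 fold change of 0.005 (edgeR adjusted p = 0.97). Among the 8 other pan-reactive genes, Hspb1, a small heat shock protein, rose by 0.52 (SE 0.09, edgeR adjusted p = 0.012) and Serpina3n, a secreted protease inhibitor, by 0.52 (SE 0.12, edgeR adjusted p = 0.016). With the length correction Hspb1 stood at 0.16 (edgeR adjusted p = 0.21) and Serpina3n at 0.36 (edgeR adjusted p = 0.039). Both calls were lost in edgeR without Ctrl mouse 4 or Sox2 cKO mouse 1, and that of Serpina3n also without Ctrl mouse 6 or Sox2 cKO mouse 3, with adjusted p from 0.052 to 0.072, while DESeq2 kept both in each of these.

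Of the 9 other A1 genes, 3 were called higher and 0 lower by edgeR, with 0 lower also at an unadjusted p below 0.05 and in DESeq2, and 7 were higher without overlap. Over all tested genes 12.2% were called higher and 22.6% were higher without overlap. H2-D1, a class I antigen-presenting chain, was at 78.3, 62.8 and 64.1 CPM in Ctrl and 124, 95.6 and 85.0 CPM in Sox2 cKO, and rose by 0.57 (SE 0.14, edgeR adjusted p = 0.020). H2-T23, a related non-classical chain, rose by 0.64 (SE 0.18, edgeR adjusted p = 0.028), and Iigp1, an interferon-induced GTPase, rose by 1.11 (SE 0.33, edgeR adjusted p = 0.035). With the length correction H2-D1 was at 0.42 (edgeR adjusted p = 0.042), H2-T23 at 0.56 (0.051) and Iigp1 at 1.08 (0.052). In edgeR all 3 calls were lost without Ctrl mouse 4, Ctrl mouse 6 or Sox2 cKO mouse 1, with adjusted p from 0.065 to 0.14, and those of H2-T23 and Iigp1 also without Sox2 cKO mouse 3 (0.055 and 0.057). In DESeq2 H2-T23 was lost without Ctrl mouse 6 (0.49, adjusted p = 0.057) or Sox2 cKO mouse 1 (0.43, adjusted p = 0.092), and Iigp1 without Ctrl mouse 4 (0.90, adjusted p = 0.10) or Sox2 cKO mouse 1 (0.70, adjusted p = 0.19). The H2 genes and Iigp1 have close relatives in the genome with which reads can be shared, so their values are uncertain to that extent.

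Of the 7 other A2 genes tested, edgeR called 0 in either direction, with 1 higher and 0 lower at an unadjusted p below 0.05, and DESeq2 also called 0. By sign 6 of the 7 were higher, with a median log2 fold change of 0.38. Whether the pan-reactive, A1 and A2 lists differed from each other was not tested.

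**Figure D5:**
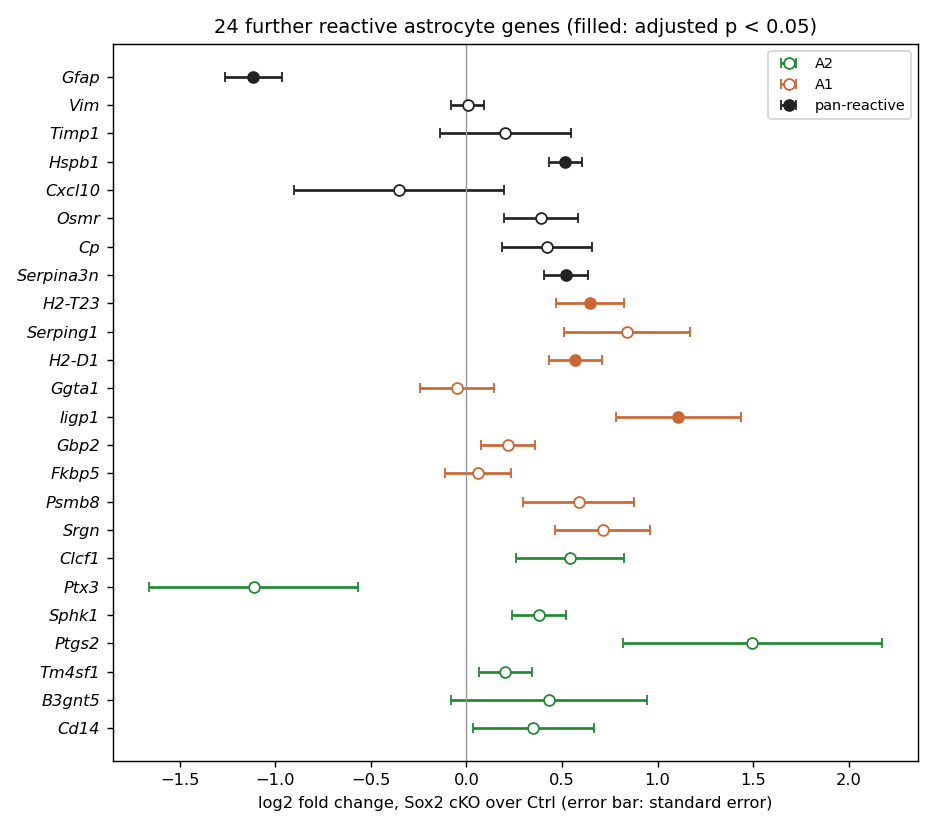
The plot gives the log2 fold change (Sox2 cKO over Ctrl) with its SE for the 24 other reactive genes tested, grouped by list. Gfap at -1.11 was the only one called lower, and the called genes on the other side ran from 0.52 for Hspb1 and Serpina3n to 1.11 for Iigp1.

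Markers of the cells in the cord were read beside these values. Of 15 astrocyte markers, 6 were called lower (Aldh1l1, Aqp4, Slc1a2, Slc1a3, Slc4a4 and Kcnj10) and S100b higher, with summed CPM of 12164 to 13660 in Ctrl and 10054 to 11235 in Sox2 cKO, so the 6 moved in the direction of Cd44, Emp1 and Cd109. Over all tested genes 12.2% were called higher and 12.4% lower. With the length correction Aqp4, Slc4a4 and Kcnj10 were still called lower and 0 of the 15 higher, S100b being at 0.47 (edgeR adjusted p = 0.062). Summed CPM overlapped between the groups for microglia and macrophages (249 to 299 and 208 to 273), endothelial cells (322 to 388 and 321 to 425), pericytes and smooth muscle (151 to 160 and 152 to 198), neurons (9435 to 9959 and 9611 to 9877), oligodendrocytes (30682 to 34375 and 31129 to 33596) and red blood cells (57.1 to 166 and 76.8 to 98.4). It was lower without overlap for oligodendrocyte precursors (569 to 594 and 474 to 509), 3 of whose 6 markers were called lower, and for ependymal cells (48.1 to 56.8 and 42.6 to 45.8). Trem2 of the microglial, Ly6c1 of the endothelial and Kcnj8 of the pericyte list were called higher, and Foxj1 of the ependymal list lower. No listed marker was at 0 in every library, and the part of these cells in the results was not tested.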

How the data were processed

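Single-end reads were mapped by the authors with STAR 2.5 (mm10) and assigned to genes with HTSeq 0.6.1, and the raw counts were deposited. The authors also deposited FPKM, counts scaled by gene length and library total. The counter's strand setting and the annotation release are not given in the sources used here. The columns carry codes whose last digit was read as a mouse number, grouped by the same numbers under group names on a blot of the study. Group means of normalized counts matched those the study lists for 1999 of 1999 genes (relative tolerance 0.0001), and 0 with groups exchanged. There were 0 unused per-sample columns. Names and positions came from GENCODE M21, and 34490 of 35275 identifiers matched. Gene lengths were recovered from counts and FPKM for 24442 genes, all whole.

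The test was that of edgeR 4.0.16 in R 4.3.3 on the counts (filterByExpr, TMM, two-sided quasi-likelihood test, no covariates, Benjamini-Hochberg at 0.05 over 16137 genes). In a simulation of this comparison on 16108 genes, 100% of 200 genes changed by 1 (log2) were recovered, and 6.1% of calls were unchanged genes. Only genes above a count minimum were changed there, every gene had the same dispersion, and no length trend or outlying library was put in. Recovery of smaller changes, or of genes as low as Lcn2 and Steap4, was therefore not tested. Libraries of 1 group differed beyond counting noise (chi-square per degree of freedom from 6.74 to 29.2). The p-values set the difference between the groups against the spread between these mice, an estimate partly shared over genes. Alternatives were DESeq2 1.42.0, limma 3.58.1 on log2 FPKM (pseudocounts 1 and 0.1, mean FPKM of at least 0.5), upper quartile and DESeq2 size factors, no low-count filter, at least 10 counts in every library, a lowess correction for length (span 0.3), and each library left out.

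The members, lists and tests were chosen with earlier results of these data known. Genes named are the members, Sox2, called genes of the other reactive lists, and the 3 nearest profiles for Lcn2, Cd44 and S100a10. Gdpd3 and others of those profiles follow that rule. Cell type markers, Vim and Ptgs2 were named after their values were seen.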

Additional observations from a re-analysis of the deposited data

How the results depend on the processing

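No paired analysis was possible because the columns of the tables carry no replicate numbers. Steap4 was too low for the limma fits, which held 9 of the 10 genes. With limma on log2(FPKM + 1) 1 of the 9 was called higher and 2 lower. With limma on log2(FPKM + 0.1) 0 were called higher and 0 lower, and 0 of the other reactive genes were called higher and 0 lower. Counting both directions, 6 of the 9 members and 9 of the other reactive genes were at an unadjusted p below 0.05 in that fit. That fit called 21 genes in all, with 5870 at an unadjusted p below 0.05, and the median log2 fold change of the 9 was 0.34. With the length correction 2109 genes were called in all and 2 of the other reactive genes were higher. Of all calls 50.6% were lower (1962 higher, 2008 lower), against 41.7% with upper quartile normalization (2313 and 1652) and 23.8% with limma on log2(FPKM + 1) (2476 and 772).

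Leaving out 1 library at a time with edgeR or DESeq2, all calls ranged from 8 to 6119, members called higher from 0 to 3 and lower from 0 to 3, and other reactive genes called higher from 0 to 8 and lower from 0 to 2. The lowest counts of all calls were 8 without Sox2 cKO mouse 1 and 26 without Ctrl mouse 4 in edgeR, the highest 6119 without Ctrl mouse 2, and 1082, 1359 and 2665 without Ctrl mouse 6 and Sox2 cKO mice 3 and 5. Steap4 turned to 0.13 (edgeR) and 0.12 (DESeq2) without Ctrl mouse 2 and to 0.006 without Sox2 cKO mouse 5 in edgeR, over a range of -0.22 to 0.13 with 1 library left out. No other gene of the 10 changed sign among the 20 alternatives: Lcn2 ran from 1.85 to 3.58 and was called in 11, Cd44 from -0.75 to -0.40 in 17, Cd109 from -1.13 to -0.39 in 17, S100a10 from 0.04 to 0.53 in 16, and Fbln5 from 0.28 to 0.68 in 5. In Ctrl, Steap4, Aspg and Lcn2 rest on at most 63 counts a library, which limits what could be detected.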

Other observations

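Sox2 cKO mouse 1 held the highest level of 18 of the 24 other reactive genes tested (75.0%), of 3 of the 10 members, Lcn2, Aspg and S100a10, and of 27.2% of all tested genes. Sox2 cKO mouse 5 held the highest level of 2 of those 24, and mouse 3 of 1. Ptgs2, the inducible cyclooxygenase and an A2 gene, was among those 18. It was at 0.852, 0.540 and 0.386 CPM in Ctrl and 3.73, 0.955 and 0.491 CPM in Sox2 cKO, with a log2 fold change of 1.50 (edgeR adjusted p = 0.13) that did not pass the test.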
